A study of Homo sapiens with 44 samples.

Results

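The troponin gene family was followed through cardiac differentiation of a human embryonic stem cell line. Its 8 members were taken by name: TNNT1, TNNT2 and TNNT3 for troponin T, TNNI1, TNNI2 and TNNI3 for troponin I, and TNNC1 and TNNC2 for troponin C. These are 8 of the 60499 genes in the deposited tables, and all 8 passed the filter on low counts that left 22955 genes for testing. Membership of the family, and no threshold on a measured value, defines the set.

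Troponin sits on the thin filament of striated muscle and makes contraction depend on calcium. Troponin C binds calcium, troponin I holds back the interaction of actin with myosin, and troponin T anchors the complex to tropomyosin. Each subunit comes as paralogs named for the adult muscle that uses them. TNNT2, TNNI3 and TNNC1 encode the set of the adult heart, and TNNC1 and TNNI1 also serve slow skeletal muscle together with TNNT1. TNNT3, TNNI2 and TNNC2 belong to fast skeletal muscle. The embryonic and fetal heart uses TNNI1 and replaces it by TNNI3 around and after birth, a switch often read as a sign of cardiomyocyte maturity.

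The line was H1, derived from a human embryo and long in wide use, and RNA of 44 wells was sequenced in 12 groups. Pluripotent wells were coated with laminin LN-521 alone, and all other wells with LN-521 and LN-221. Day 0 wells were confluent and still in stem cell medium. Wells of day 1 and day 3 had received CHIR99021, an inhibitor of the kinase GSK3, and wells of day 5 had then received IWP2, which blocks Wnt secretion, both in RPMI medium with a B27 supplement free of insulin. Wells of day 7 and day 9 were in that medium without either compound, and wells of day 11, 14, 20, 30 and 90 in RPMI with a complete B27 supplement. Days 5, 7, 9 and 11 have 5 wells each and every other group has 3. For day 11 the series text names 3 wells where 5 libraries carry that label. All wells share 1 cell line and no sort was applied, so each value is a mean over whatever cells a well held. In such bulk RNA, fewer cells of a type and less RNA of a gene per cell cannot be told apart. Nothing states that wells came from separate differentiations, so p values measure only the spread between these wells.

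Total estimated counts ran from 6937136 to 33498022 per library and RNA integrity numbers (RIN, from 1 to 10) from 7.4 to 10. The 8 cardiomyocyte markers MYH6, MYH7, MYL7, ACTN2, MYBPC3, RYR2, NKX2-5 and PLN summed to between 42.8 and 89.4 CPM (counts scaled to a common library size) in pluripotent wells and to between 15751 and 54187 CPM at day 90. Of 16 skeletal muscle markers, 5 had no day 90 well above 3 counts, among them the lineage regulators MYOD1, MYF5 and MYF6. MYOG, another regulator of that lineage, averaged 1.49 CPM at day 90. CKM, the muscle creatine kinase that the heart also uses, stood at 725 CPM there and carried most of the skeletal list's sum of 591 to 977 CPM. Markers of endoderm and liver (AFP, ALB, TTR, APOA1, APOB, FOXA2 and SOX17) stood high in some wells. Their sum was 3289 to 4969 CPM in the day 14 wells and 1098 to 4364 in the day 20 wells, against 21.6 to 300.2 at day 30 and 9.95 to 138.7 at day 90, so whole groups differed. Within groups it was 7007 CPM in day 9 well 2 against 548 to 2017 in the other day 9 wells, and 5122 and 9468 CPM in day 11 wells 1 and 2 against 187 to 222 in wells 5, 6 and 7. The same day 11 wells 1 and 2 had 6728 and 4369 CPM of cardiomyocyte markers against 17143 to 18659 in wells 5, 6 and 7, and RIN of 8.6 and 8.0 against 9.2 to 9.5.

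In GRCh38, the T and I genes lie as neighbours in 3 pairs. TNNI1 (ENSG00000159173, chr1:201403768-201429866) and TNNT2 (ENSG00000118194, chr1:201359008-201377762) are both on the minus strand, 26005 bp apart. TNNT1 (ENSG00000105048, chr19:55132794-55149354) and TNNI3 (ENSG00000129991, chr19:55151767-55157773) are on the minus strand of chromosome 19 with 2412 bp between them. TNNI2 (ENSG00000130598, chr11:1838989-1841680) and TNNT3 (ENSG00000130595, chr11:1919562-1938706) are on the plus strand, 77881 bp apart. The C genes stand alone: TNNC1 (ENSG00000114854) at chr3:52451102-52454070 and TNNC2 (ENSG00000101470) at chr20:45823214-45833745, both on the minus strand. TNNT2 overlaps LAD1 and TNNI3 overlaps AC010327.1 on the same strand, while AC096677.3 lies opposite TNNI1. Whether counting used the strand is not given in the sources used here, so reads of TNNI1 and of its antisense neighbour cannot be told apart. AC010327.1 itself reached at most 1.40 CPM in any well.

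Promoter sequences were matched for 3 of the 8 members, and these 3 are shown. Their genes are TNNT1, high in undifferentiated cells, TNNT2, high from day 7, and TNNI3, highest at day 90. Each is the gene's own strand, 5′ to 3′, from 250 bases before to 50 bases after the RefSeq start site on GRCh38.p14, at chr19:55149157-55149456 for TNNT1, chr1:201377631-201377930 for TNNT2 and chr19:55157683-55157982 for TNNI3, all on the minus strand. Capitals mark matches to a TATA box (TATAAA), an M-CAT core (CATTCC, bound by TEAD factors), a GATA site (GATAA) and an E-box (CAGCTG), searched on both strands.
TNNT1: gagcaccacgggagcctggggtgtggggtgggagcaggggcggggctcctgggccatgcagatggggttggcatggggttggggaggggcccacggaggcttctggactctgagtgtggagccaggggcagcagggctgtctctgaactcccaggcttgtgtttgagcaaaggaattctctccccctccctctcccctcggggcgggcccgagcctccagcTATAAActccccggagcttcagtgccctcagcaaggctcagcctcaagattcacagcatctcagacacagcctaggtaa
TNNT2: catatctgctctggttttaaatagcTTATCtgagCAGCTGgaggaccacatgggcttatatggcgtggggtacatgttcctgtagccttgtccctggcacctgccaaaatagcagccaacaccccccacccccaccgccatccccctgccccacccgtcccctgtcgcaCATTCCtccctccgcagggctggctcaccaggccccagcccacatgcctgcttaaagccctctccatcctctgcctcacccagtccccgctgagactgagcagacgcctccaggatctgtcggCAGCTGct
TNNI3: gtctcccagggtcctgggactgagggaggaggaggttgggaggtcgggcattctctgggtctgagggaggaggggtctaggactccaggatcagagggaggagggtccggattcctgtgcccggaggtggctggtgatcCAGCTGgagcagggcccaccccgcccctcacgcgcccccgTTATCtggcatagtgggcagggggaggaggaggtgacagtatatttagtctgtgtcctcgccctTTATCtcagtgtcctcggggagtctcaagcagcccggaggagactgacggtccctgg
The TNNT1 window holds a TATA box starting 29 bases before the start site. The TNNT2 window holds an M-CAT core at -81, a GATA site on the opposite strand at -225 and E-boxes at -216 and 43. The TNNI3 window holds opposite-strand GATA sites at -71 and -7 and an E-box at -111. Among 35116 promoter windows of the same length, 11.5% hold TATAAA, 14.0% CATTCC, 22.7% GATAA and 17.9% CAGCTG, so single matches are common. Neither a CArG box nor a MEF2 box, found in 1.29% and 2.99% of windows, was matched in the 3 windows. A match describes letters only.

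Each comparison below sets a group against the one sampled before it, to ask which troponin genes changed in that interval. Calls required a log2 fold change of 1 or more in size together with an adjusted p below 0.05 in edgeR's quasi-likelihood test. The comparisons share groups with each other and are not independent. In pluripotent against day 0 cells, 0 of 8 members were called by edgeR, DESeq2 or an unadjusted p under 0.05, beside 2.91% of all genes called by edgeR. From day 0 to day 1, 2 fell (TNNT1 and TNNI3), beside 13.5% of all genes called, 3.86% higher and 9.66% lower. From day 1 to day 3, 4 rose (TNNC1, TNNT1, TNNI1 and TNNT3) and TNNC2 fell, beside 17.8% of all genes, 11.0% higher and 6.8% lower. From day 3 to day 5, TNNT2 and TNNI1 rose while TNNT1 and TNNC1 fell, beside 10.1% of all genes, 5.75% higher and 4.34% lower. From day 5 to day 7, 4 members rose and 0 fell, beside 3.65% of all genes, 2.74% higher and 0.906% lower. Those 4 were TNNT2, TNNI1, TNNC1 and TNNC2, and the median log2 fold change of the 8 members was 2.06 against -0.01 for all genes tested. TNNT2, TNNI1 and TNNC1 are the genes that the embryonic heart uses, and TNNC2 rose at a low level.

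Later steps had fewer calls than those from day 0 to day 7. By edgeR, 0 of 8 members were called at day 9 against day 7, where 1.28% of all genes were called. It was also 0 at day 11 against day 9 (1.63%), at day 14 against day 11 (0.697%), at day 20 against day 14 (0.0479%) and at day 30 against day 20 (2.02%). With so few genes called, 0 of 8 does not set the members apart from other genes. The members' median log2 fold change ran from -0.72 at day 14 against day 11 to 0.53 at day 30 against day 20. For all genes it was 0.05 and -0.05 there. At an unadjusted p under 0.05 these 5 steps gave 2, 2, 2, 1 and 3 members, and DESeq2 called 0, 2, 2, 1 and 0. The shares of all genes by these 2 criteria are not given here, so these counts do not set the members apart either. At day 90 against day 30, 1 member rose (TNNI3), beside 5.09% of all genes, 2.65% higher and 2.44% lower. Across the longer spans, 5 members were called at day 9 against day 0, of which 4 rose and TNNT1 fell, where 31.7% of all genes were called, 17.1% higher and 14.6% lower. At day 90 against day 9, 6 were called, of which 5 rose and TNNC2 fell, where 23.9% of all genes were called, 11.9% higher and 12% lower. The members' medians were 2.14 and 1.95 on the log2 scale there, against 0.08 and -0.02 for all genes.

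**Figure D1:**
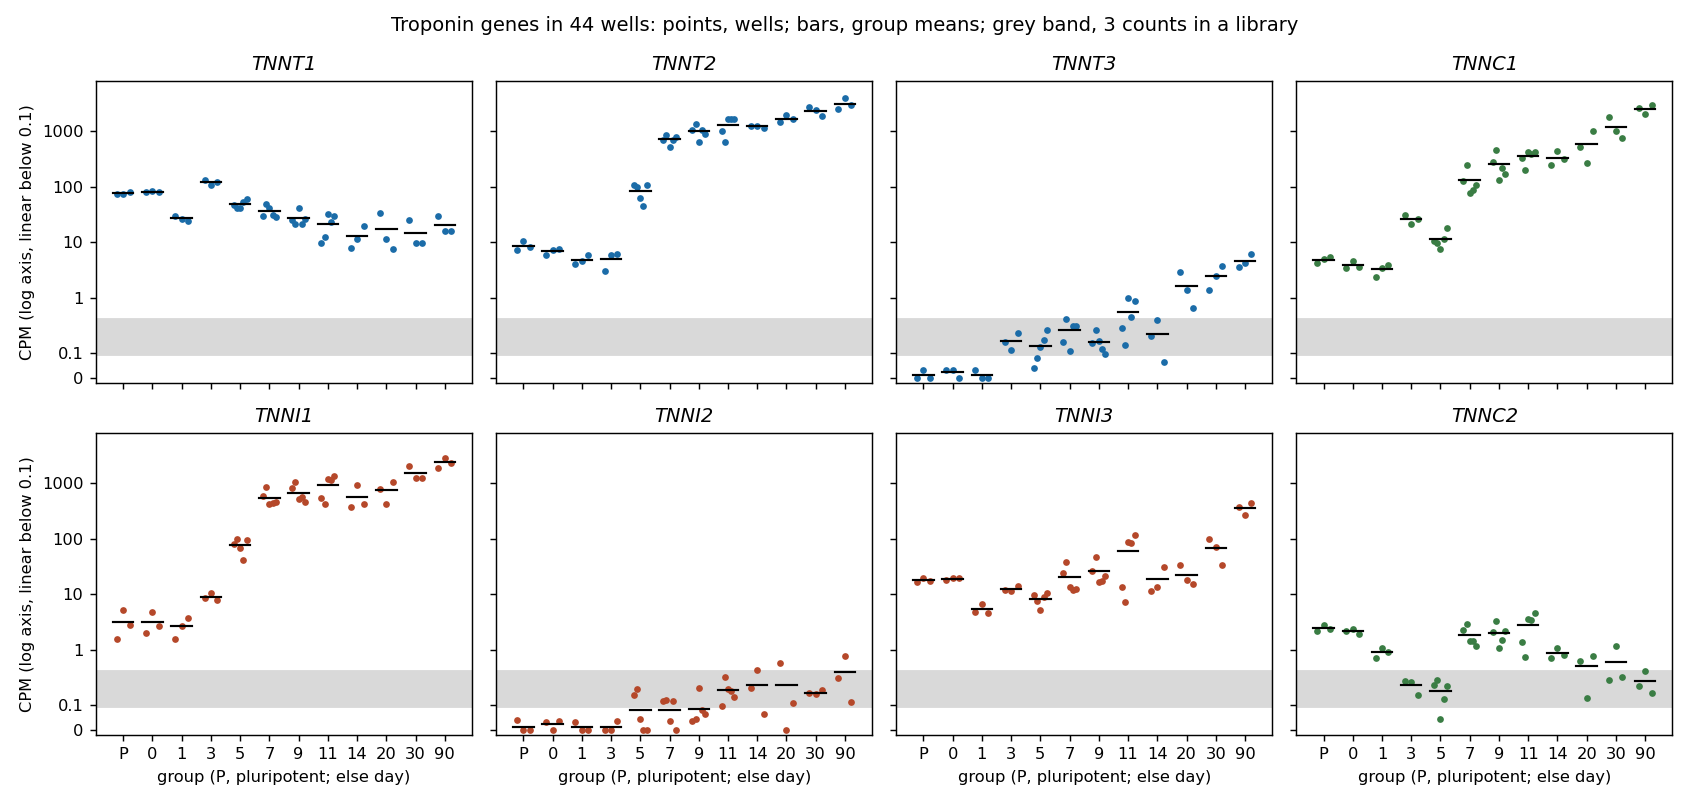
CPM of each troponin gene (vertical axis, logarithmic and linear below 0.1) in each well, by group (P, pluripotent; numbers, day). Points are wells, bars are group means, and the grey band spans 3 counts over the libraries (0.0919 to 0.410 CPM). TNNT2, TNNI1 and TNNC1 stand under 11 CPM in all pluripotent, day 0 and day 1 wells and at 1879 CPM or above in all day 90 wells.

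Among the T genes, TNNT2, the T gene of the heart at all ages, went from a trace to a high level within days. Its day 3 wells held 2.98, 5.92 and 6.04 CPM. The 5 day 5 wells held 105, 99.2, 62.3, 44.9 and 105 CPM, and the day 7 wells 703, 858, 525, 694 and 788 CPM. These 3 groups do not overlap. The rise was 16.7-fold from day 3 to day 5 (log2 4.06, SE 0.33, adjusted p = 1.8e-11 with edgeR's quasi-likelihood test) and 8.56-fold from day 5 to day 7 (log2 3.10, SE 0.25, adjusted p = 2.1e-11). Day 9 against day 0 came to 145-fold (log2 7.18, SE 0.39).

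After day 7 TNNT2 levels overlapped from each group to the next, except that every day 20 well lay above every day 14 well. Means were 996 ± 255 CPM at day 9 (SD, n = 5), 1315 ± 461 at day 11 (n = 5), 1215 ± 60.1 at day 14 (n = 3), 1682 ± 259 at day 20 (n = 3), 2320.3 ± 413 at day 30 (n = 3) and 3121 ± 697 at day 90 (n = 3). No single step passed the test, while day 90 against day 9 did (log2 1.65, SE 0.26, adjusted p = 3.2e-06 with edgeR). On log2(TPM + 1) with limma that last difference was 0.96, just under the fold limit. TPM (a library's transcript share, scaled for length) also put TNNT2 lower at day 90 than at day 30, by -0.53 on the log2 scale (limma adjusted p = 0.30) where CPM put it higher by 0.43 (edgeR adjusted p = 0.41). Protein-coding genes held from 15.4% to 41.9% of TPM in these total-RNA libraries, so each TPM is a share of a changing rest.

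TNNT1, the slow skeletal T gene, was the T gene of the undifferentiated cells. The pluripotent wells held 73.2, 73.5 and 79.5 CPM, the day 0 wells 78.7, 82.1 and 81.5, the day 1 wells 29.4, 26.5 and 24.4, and the day 3 wells 132, 107 and 121 CPM. Day 1 wells lie below all of the others and day 3 wells above. TNNT1 fell 3.01-fold by day 1 (log2 -1.59, SE 0.41, adjusted p = 0.0042 with edgeR), rose 4.49-fold by day 3 (log2 2.17, SE 0.42, adjusted p = 1.1e-04) and fell 2.46-fold by day 5 (log2 -1.30, SE 0.35, adjusted p = 0.0076). From day 5 on, no step between neighbouring groups passed the test and wells varied widely. Day 20 wells held 33.6, 11.5 and 7.45 CPM and day 90 wells 29.2, 16.1 and 15.6 CPM. The day 9 mean of 26.9 ± 8.21 CPM (SD, n = 5) was below day 0 (log2 -1.58, SE 0.35, adjusted p = 3.0e-04 with edgeR). Day 90 against day 9 was called only on TPM, where it was lower (limma log2 -1.01). One day 9 well, well 2, stood at 41.0 CPM against 21.0 to 26.1 in the other 4, and it is also the day 9 well with the high endoderm and liver sum. Its part in the level was not tested.

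TNNT3, the fast skeletal T gene, was near the counting floor until day 14. Pluripotent, day 0 and day 1 wells had 0 or 1 count each, and day 3 wells had 4, 3 and 6 counts. The calls for TNNT3 at day 3 against day 1 (edgeR adjusted p = 0.0094) and at day 9 against day 0 (adjusted p = 0.015) rest on those counts. Both were lost with limma on log2(TPM + 1) (adjusted p = 0.59 and 0.64), and the first also without day 1 well 2 (adjusted p = 0.052) or well 3 (0.057), the second without day 0 well 3 (0.082). No fold is given for either. Later steps between neighbouring groups were not called, but 2 lay close to the limit. Day 11 against day 9 (log2 1.79, SE 0.53, edgeR adjusted p = 0.050) was called in 7 alternatives: DESeq2, RLE scaling, a lane term, RIN of at least 9, and without day 9 well 10 (log2 2.01), day 11 well 1 (1.95) or day 11 well 2 (2.03). Day 20 against day 14 (log2 2.78, SE 0.68, edgeR adjusted p = 0.14) was called with DESeq2, a lane term, and without day 20 well 3 (log2 3.12). Late levels were clearer: 2.88, 1.37 and 0.657 CPM at day 20, 1.38, 2.42 and 3.66 at day 30, and 3.59, 4.17 and 5.99 at day 90. Against day 9 the day 90 wells were 28.4-fold higher (log2 4.83, SE 0.57, adjusted p = 1.1e-08 with edgeR), with 3 to 6 counts in each day 9 well. Even so TNNT3 supplied only 0.246 ± 0.051% of troponin T TPM at day 90 (SD, n = 3).

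Among the I genes, TNNI1 is the inhibitor of the embryonic heart and of slow skeletal muscle. It began at 8.46, 10.4 and 7.89 CPM in the day 3 wells, after 1.55, 2.67 and 3.71 in the day 1 wells. Day 5 wells held 81.3, 97.7, 68.0, 41.9 and 93.1 CPM and day 7 wells 584, 852, 419, 446 and 458 CPM. No neighbouring groups among these 4 overlap. TNNI1 rose 3.37-fold by day 3 (log2 1.75, SE 0.47, adjusted p = 0.0039 with edgeR), 8.56-fold by day 5 (log2 3.10, SE 0.45, adjusted p = 2.7e-06) and 7.22-fold by day 7 (log2 2.85, SE 0.36, adjusted p = 2.9e-07). The first of these steps shows TNNI1 above its day 1 level at a time when TNNT2 was not (day 3 against day 1, TNNT2 log2 0.03, SE 0.32, edgeR adjusted p = 0.96). The difference between those genes was not itself tested.

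From day 7 to day 90 TNNI1 means ran from 552 ± 179.5 CPM (SD, n = 5) to 2360.1 ± 513 (n = 3). Day 90 was above day 9 (log2 1.80, SE 0.38, adjusted p = 1.9e-04 with edgeR). Against day 30, which was not called, CPM put it higher by 0.66 and TPM lower, at -0.32. Day 14 wells split widely, with 372, 919 and 420.1 CPM, and day 20 wells held 790.1, 414 and 1044 CPM. The low day 14 well 2 and day 20 well 2 are shallow libraries of low integrity, with 8679308 and 6937136 counts and RIN of 7.4 and 8.0. Their TNNT2 levels, at 1259.9 and 1951 CPM, were not low. The TNNT2 to TNNI1 ratio of TPM was 4.21 and 6.36 in these 2 wells, against 1.52 to 2.62 in every well from day 7 on except these and day 14 well 6, at 3.33 with RIN 8.2. The part of RNA integrity in this ratio was not tested.

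TNNI3, the adult cardiac inhibitor, had a course of its own. Pluripotent wells held 16.8, 19.2 and 17.1 CPM, day 0 wells 18.3, 19.5 and 19.3, day 1 wells 4.78, 6.65 and 4.64, and day 3 wells 11.9, 11.5 and 13.8 CPM. The day 1 wells were the lowest of the 4 groups. The fall to day 1 was 3.55-fold (log2 -1.83, SE 0.60, adjusted p = 0.025 with edgeR). That call was lost when any 1 of the 6 wells was left out (adjusted p from 0.050 to 0.10) and with lane in the model (log2 -1.57, adjusted p = 0.055).

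At the steps where TNNT2 and TNNI1 rose, TNNI3 did not pass the test. Its day 5 wells held 9.56, 7.46, 5.22, 8.91 and 10.5 CPM and its day 7 wells 24.4, 38.5, 13.6, 12.1 and 12.4 CPM, which do not overlap (log2 1.27, SE 0.46, adjusted p = 0.10 with edgeR). DESeq2 called this step (adjusted p = 0.043), as did edgeR on those 2 groups alone (0.017). By day 9 the mean was 25.7 ± 12.6 CPM (SD, n = 5), against 19.0 ± 0.609 at day 0 (n = 3), a difference of log2 0.43 (SE 0.52, edgeR adjusted p = 0.51). The level of the adult cardiac gene in these day 9 wells thus could not be set apart from that in undifferentiated cells.

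Day 11 wells fell into 2 sets for TNNI3. Wells 1 and 2 held 13.3 and 7.29 CPM, while wells 5, 6 and 7 held 86.6, 84.3 and 114 CPM. The low wells are the 2 with high endoderm and liver markers, fewer cardiomyocyte markers and lower RIN described above, and their part in the split was not tested. With all 5 wells day 11 was not called against day 9 (log2 1.25, SE 0.45, adjusted p = 0.12 with edgeR). DESeq2 did call this step with all wells (log2 1.25, adjusted p = 0.048). With edgeR it was called when day 11 well 1 (log2 1.51), day 11 well 2 (1.54) or day 9 well 10 (1.59) was left out. With libraries of RIN of at least 9 only, an alternative chosen after seeing the data that drops both wells, TNNI3 was called higher at day 11 than at day 9 (log2 1.77, edgeR adjusted p = 0.0012). Day 14 wells held 11.3, 13.4 and 31.02 CPM and day 20 wells 33.04, 18.2 and 15.5 CPM. The 3 high day 11 wells, set apart by this same level, stood above every well of the 2 later groups, while day 11 wells 1 and 2 did not. With all wells, day 14 was not called below day 11 (log2 -1.72, SE 0.55, adjusted p = 0.094 with edgeR), but was with DESeq2 and without day 11 well 1 (log2 -1.97) or well 2 (-2.003). Endoderm and liver markers summed to 3289 to 4969 CPM at day 14 and 1098 to 4364 at day 20, against 187 to 222 in the 3 high day 11 wells. Cardiomyocyte markers summed to 6844 to 10664 CPM at day 14 and 10002 to 14606 at day 20, against 17143 to 18659 in those 3 wells. Their part in the lower TNNI3 was not tested.

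The rise that passed the test came last. Day 30 wells held 99.2, 70.6 and 34.0 CPM of TNNI3 and day 90 wells 373, 269 and 442 CPM, with no overlap. Day 90 was 5.32-fold above day 30 (log2 2.41, SE 0.60, adjusted p = 0.0083 with edgeR). The call was lost when only these 2 groups were fitted (log2 2.39, adjusted p = 0.14) and without day 30 well 3 (log2 2.09, adjusted p = 0.071). Against day 9, day 90 was 14.1-fold higher (log2 3.81, SE 0.52, adjusted p = 1.9e-07 with edgeR), and that call was kept in all 18 alternatives run for it. RIN was 8.8, 9.5 and 8.0 in the day 90 wells and 9.5, 7.4 and 10 in the day 30 wells. The only day 90 well with RIN of at least 9, well 4, held 269 CPM, against 99.2 and 34.0 in the 2 such day 30 wells, and the spread of 1 well cannot be measured. Cardiomyocyte markers summed to 14956 to 22377 CPM at day 30 and to 15751, 54187 and 20183 CPM in the day 90 wells. The well with 54187 CPM, day 90 well 4, had the lowest TNNI3 of its group and the highest TNNT2. Markers of fibroblasts and epicardium summed to 2473 to 5903 CPM at day 30 and 12596, 2222 and 6427 CPM in the 3 day 90 wells. The part of either set of markers in the levels was not tested.

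TNNI2, the fast skeletal inhibitor, was close to absent in counts throughout. No well had more than 15 counts or 0.765 CPM, and group means ran from 0.0112 CPM at day 1 to 0.397 at day 90. No comparison called it with edgeR's full model. Day 90 against day 9 was called with DESeq2 (adjusted p = 0.049) and with the replicate block (0.030), from 1 to 6 counts in each day 9 well and 2 to 11 in each day 90 well. It was also called without day 9 well 2 (log2 2.69).

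Of the C genes, TNNC1 encodes the calcium sensor of heart and slow muscle. Day 1 wells held 2.39, 3.41 and 3.86 CPM, day 3 wells 31.3, 21.6 and 26.1, day 5 wells 10.7, 9.62, 7.54, 11.4 and 17.7, and day 7 wells 127, 247, 78.1, 87.0 and 109 CPM. The level was thus high, low and high again over 3 samplings without overlap. TNNC1 rose 8.15-fold by day 3 (log2 3.03, SE 0.46, adjusted p = 2.6e-06 with edgeR), fell 2.31-fold by day 5 (log2 -1.21, SE 0.37, adjusted p = 0.018) and rose 11.4-fold by day 7 (log2 3.51, SE 0.35, adjusted p = 3.0e-09). The fall was lost without day 3 well 1 (adjusted p = 0.12), day 3 well 3 (0.066) or day 5 well 3 (0.053). TNNT1 shared the order of day 1, 3 and 5, and TNNT2 did not.

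TNNC1 then had means of 253 ± 132 CPM at day 9 (SD, n = 5), 352 ± 94.7 at day 11 (n = 5), 335 ± 95.4 at day 14 (n = 3), 592 ± 367 at day 20 (n = 3), 1173 ± 529 at day 30 (n = 3) and 2527 ± 459 at day 90 (n = 3). Day 90 wells, at 2589, 2040.1 and 2953 CPM, were above the day 30 wells at 1766, 1000.2 and 752. That step was not called by edgeR (log2 1.11, SE 0.41, adjusted p = 0.090) but was by DESeq2 (adjusted p = 0.037), and by edgeR without day 30 well 1 (log2 1.53). Without day 7 well 10, day 9 was called above day 7 (log2 1.34), and without day 20 well 3, day 30 above day 20 (log2 1.63). Day 90 against day 9 was 9.97-fold (log2 3.32, SE 0.37, adjusted p = 3.2e-09 with edgeR). This span was larger for TNNC1 than for TNNT2 or TNNI1 by point estimate, which were not tested against each other.

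TNNC2, the fast skeletal calcium sensor, stayed low but moved in steps. Pluripotent wells held 2.21, 2.82 and 2.41 CPM, day 3 wells 0.278, 0.261 and 0.151, day 5 wells 0.232, 0.279, 0.0428, 0.130 and 0.223, and day 7 wells 2.23, 2.91, 1.44, 1.45 and 1.18 CPM. Wells of days 3 and 5 lie below all pluripotent and day 7 wells. TNNC2 fell 3.86-fold from day 1 to day 3 (log2 -1.95, SE 0.58, adjusted p = 0.0099 with edgeR), a call lost without day 3 well 3 (adjusted p = 0.063) and on log2(TPM + 1) with limma (0.071). It rose 9.77-fold from day 5 to day 7 (log2 3.29, SE 0.47, adjusted p = 3.7e-06), the opposite direction to TNNC1 at the first step and the same at the second. In day 11 wells 1 and 2 it stood at 1.38 and 0.738 CPM, against 3.51, 3.47 and 4.66 in wells 5, 6 and 7. Day 14 was not called below day 11 (log2 -1.64, SE 0.50, edgeR adjusted p = 0.078), but was without day 11 well 1 (log2 -1.81), day 11 well 2 (-1.88) or day 14 well 3 (-1.90). At day 90 it was down to 0.224, 0.417 and 0.168 CPM, from 3 to 6 counts a library, and below day 9 by 7.59-fold (log2 -2.93, SE 0.57, adjusted p = 7.8e-05 with edgeR).

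**Figure D2:**
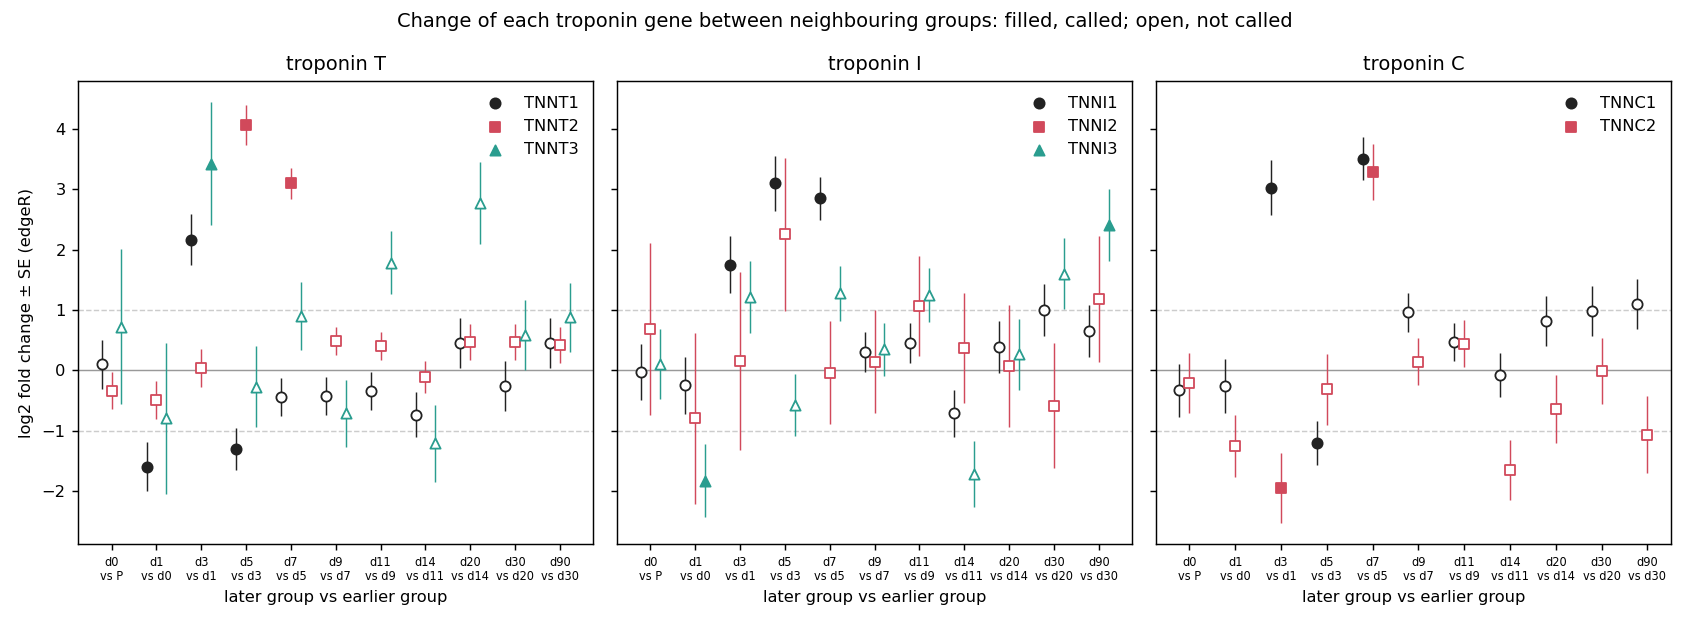
Log2 fold change of each member between neighbouring groups (vertical axis, ± SE, edgeR), for T, I and C genes. Filled symbols were called (adjusted p under 0.05 and a log2 fold change of at least 1 either way, dashed lines) and open symbols were not. Filled symbols lie at the 4 steps from day 0 to day 7 and, for TNNI3, at day 90 against day 30.

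The traces of TNNT2, TNNI1 and TNNC1 in undifferentiated wells were small beside what ran in the same lane. In the 9 pluripotent, day 0 and day 1 libraries, the counts of TNNT2 were 0.0943% to 0.182% of those of all other libraries of the lane. The same share was 0.0479% to 0.119% for TNNI1 and 0.111% to 0.275% for TNNC1. For TNNT1 it was 7.58% to 37.8% and for TNNI3 2.35% to 13.5%. The 2 highest TNNI1 values of pluripotent and day 0 wells, 5.21 and 4.79 CPM, were both in lane 4. The pluripotent well of lane 5 held 2.77 CPM, with more TNNI1 counts in the rest of its lane (158640, against 143407 for the pluripotent well of lane 4). Carry-over of reads within a lane was not tested, and fold changes of TNNT2, TNNI1 and TNNC1 against day 0 or day 1 are read with that limit.

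Paralogs were compared within each library as a share of the subunit's TPM, which scales for length. TNNT2 held 7.53%, 10.4% and 7.36% of troponin T TPM in pluripotent wells, and 61.6%, 65.8%, 56.2%, 39.4% and 55.2% in day 5 wells. At day 7 its share was 94.3%, 93.6%, 90.7%, 94.1% and 95.2%, and TNNT1 held nearly all the rest. The exchange of TNNT1 for TNNT2 thus fell between day 3, where TNNT1 held 96.8 ± 0.911% (SD, n = 3), and day 7.

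Troponin I changed hands in the same interval but towards the embryonic paralog. TNNI3 held 96.5%, 89.7% and 96.2% of troponin I TPM in pluripotent wells and 72.8%, 67.2% and 79.1% at day 3. At day 5 it held 23.2%, 16.3%, 16.7%, 32.2% and 23.1%, and at day 7 7.88%, 8.48%, 6.92%, 5.67% and 5.88%. Undifferentiated cells therefore had mainly the adult cardiac I gene at a low level, and wells from day 7 on mainly TNNI1. At day 90 TNNI3 was back at 26.1%, 14.8% and 25.6%, above the 8.18%, 7.56% and 4.75% of day 30, while TNNI1 still held 77.8 ± 6.40% (SD, n = 3).

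Among the C genes, TNNC1 held 65.7%, 63.7% and 69.1% of TPM in pluripotent wells and 78.0%, 76.0% and 80.9% at day 1. From day 3 on every well lay at 97.1% or above. At day 90 the share was 99.99 ± 0.0078% (SD, n = 3).

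For 9 share differences between day 7, 11, 30 and 90, groups were compared by two-sided exact permutation tests with Benjamini-Hochberg adjustment over the 9. None passed an adjusted p under 0.05. The TNNT2 share was 4.41 points higher at day 11 than at day 7 (exact p = 0.0079, the smallest this design allows, adjusted p = 0.054), higher in 5 of 5 pairs of wells of the same lane. The TNNC1 share was 0.758 points higher (exact p = 0.016, adjusted p = 0.054). As a log2 ratio of TPM both passed (adjusted p = 0.036). The TNNI3 share was 13.6 points higher at day 90 than at day 11 (exact p = 0.018, the smallest possible, adjusted p = 0.054) and higher in 3 of 3 same-lane pairs, by 1.40 to 14.6 points. Those pairs use only day 11 wells 5 and 7, with well 5 used more than once, so they are not independent. Against day 30 the TNNI3 share was 15.3 points higher, where 3 wells against 3 cannot give an exact p below 0.1 (adjusted p = 0.15). At day 11 against day 7 the TNNI3 share differed by 1.63 points (exact p = 0.49, adjusted p = 0.50), with day 11 wells 1 and 2 at 3.84% and 2.76% and wells 5, 6 and 7 at 11.5%, 11.5% and 13.4%.

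**Figure D3:**
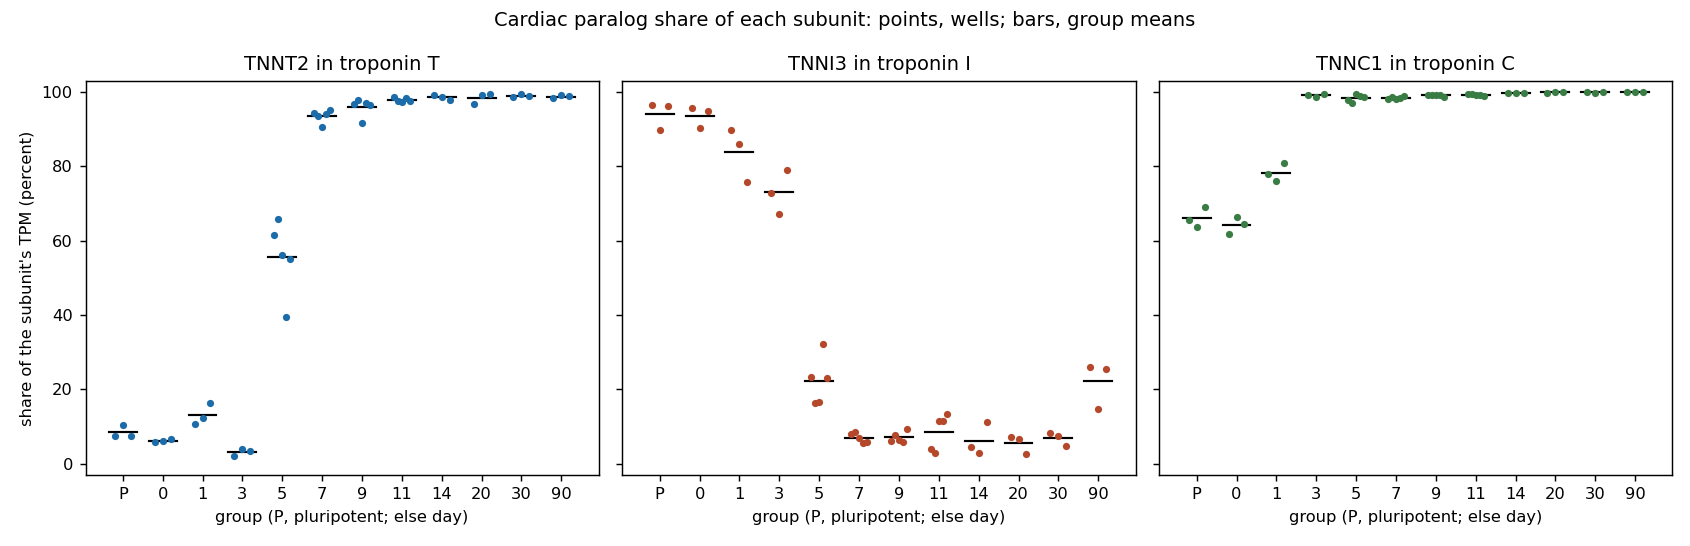
Share of the subunit's summed TPM held by TNNT2, TNNI3 and TNNC1 (vertical axis, percent) in each well, by group. Points are wells and bars are group means. The TNNT2 share goes from 3.05% at day 3 to 93.6% at day 7, the TNNI3 share from 73.0% to 6.96%, and TNNI3 stands at 22.2% at day 90.

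Summed over paralogs, the 3 subunits did not keep 1 proportion. In pluripotent wells troponin T TPM was 74.3, 75.5 and 61.8, troponin I 28.5, 32.4 and 20.2, and troponin C 7.67, 9.43 and 6.76. The C to T ratio was 0.103, 0.125 and 0.109 there, and T transcripts outnumbered C transcripts in all 3 wells. At day 30 that ratio was 1.05, 0.649 and 0.728, and at day 90 it was 1.70, 0.993 and 1.64. The I to T ratio was lowest in the day 3 wells together with day 20 well 2, at 0.152 to 0.197, and reached 0.766 to 0.792 in the day 90 wells. No test was run on these ratios, and between wells of day 14 and day 20 they varied as much as between neighbouring groups.

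**Figure D4:**
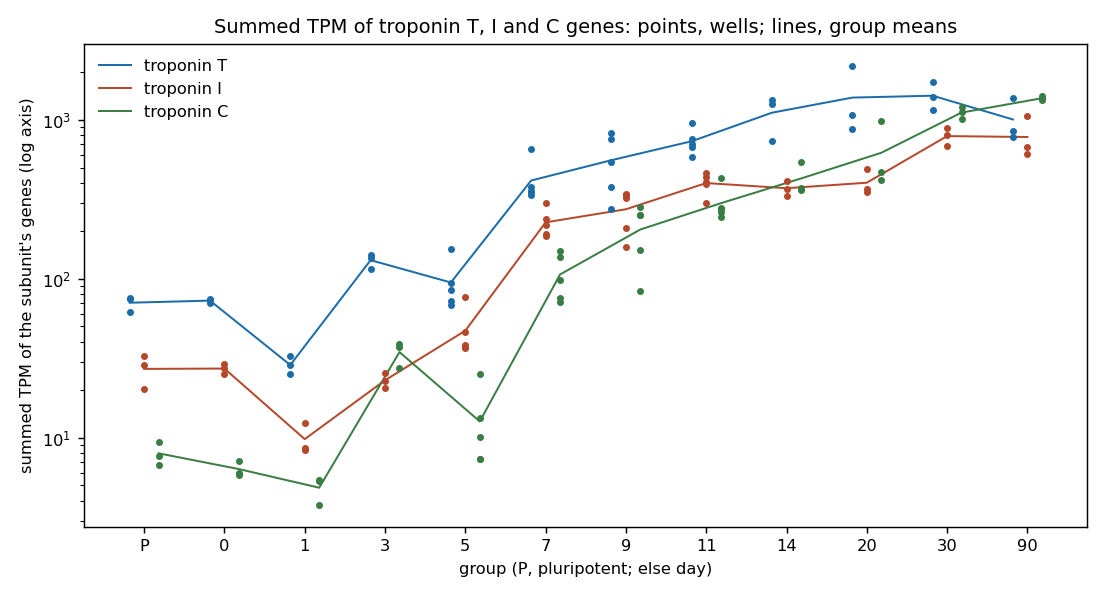
Summed TPM of the troponin T, I and C genes (vertical axis, logarithmic) in each well, by group. Points are wells and lines join group means. Troponin T stands highest in every well up to day 20, and troponin C is at or above troponin T in 1 of 3 day 30 wells and in 2 of 3 day 90 wells.

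The neighbours TNNT1 and TNNI3 both fell early and parted later. Both were lower in all day 1 wells than in all day 0 wells, as were TNNT2 and TNNC2, so this was not particular to the pair. Of all genes, 9.66% were called lower at this step, and the share without overlap is not given here. The TNNI3 call was lost when any single well was left out. The TNNT1 to TNNI3 ratio of TPM was 2.33 to 2.94 in pluripotent wells, 6.77 to 8.84 in day 3 wells, 1.09 to 2.46 in day 7 wells and 0.0367 to 0.0711 in day 90 wells. The neighbours TNNT2 and TNNI1 were both high in all wells from day 7 on, though day 14 well 2 and day 20 well 2 had the highest TNNT2 and the lowest TNNI1 of their groups.

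The effective length that links a gene's count to its TPM was also read from the files, a measure chosen after seeing the data. It depends on which transcripts the quantifier assigned the reads to. For TNNI3 it was 399.6, 441 and 422 bases in pluripotent wells, 534, 526.4 and 529.9 at day 3, 453, 502, 442, 478 and 461 at day 5, and 680.4, 651 and 682 at day 90. No pluripotent, day 0, day 1 or day 5 well reached the lowest well of day 3 or of any group from day 7 on. The TNNC1 length, by contrast, had group means between 549 and 562 bases. TNNT1 had group means between 667 and 753 bases. The deposited tables give genes and not transcripts, so which TNNI3 transcripts were assigned was not tested. A shorter length raises TPM for the same count.

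**Figure D5:**
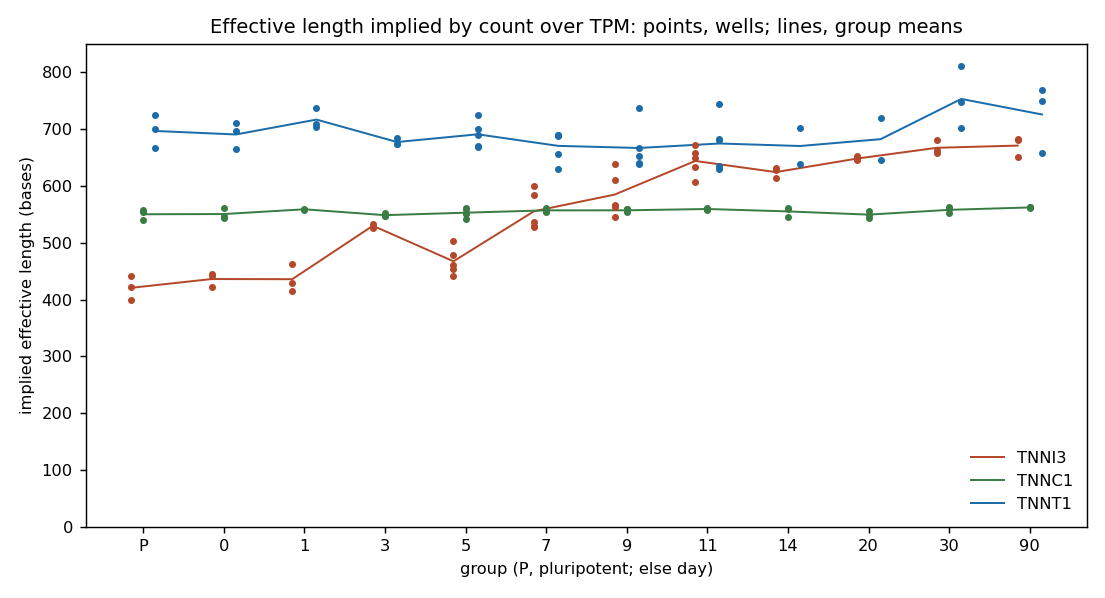
Effective length in bases (vertical axis) implied by count over TPM for TNNI3, TNNC1 and TNNT1 in each well with at least 100 counts, by group. Points are wells and lines join group means. TNNI3 goes from 421 bases in pluripotent wells to 671 at day 90, and TNNC1 stays between 549 and 562.

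Genes of thin filaments were followed for context. Of 15 such genes (actins, tropomyosins, tropomodulin and leiomodins, nebulins, XIRP1 and FHOD3) 14 were tested. At day 7 against day 5, 8 rose and 0 fell, beside 2.74% of all genes called higher and 0.906% lower. The median log2 fold change of the 14 was 1.77 against -0.01 for all genes. The largest rises were those of the skeletal actin ACTA1 (log2 4.23, SE 0.58), of the cardiac actin ACTC1 (log2 3.07, SE 0.42) and of the actin filament nucleator LMOD1 (log2 2.62, SE 0.35). LMOD1 is also 1 of 6 smooth muscle markers, of which 5 rose at this step, beside 2.74% of all genes called higher. Those 6 markers summed to 130 to 209 CPM in the day 5 wells and 684 to 1365 CPM in the day 7 wells. TPM1, the main cardiac tropomyosin gene, rose at the step before as well, from 159 to 1106 CPM on average between day 3 and day 5 (log2 2.80, SE 0.28, adjusted p = 1.8e-09 with edgeR). At day 90 against day 30, when TNNI3 rose, 1 of the thin filament genes rose (LMOD3, log2 2.63, SE 0.81). ACTA1 fell (log2 -3.58, SE 0.71, adjusted p = 0.0010 with edgeR). Of all genes, 2.65% were called higher and 2.44% lower there.

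Of 13 thick filament genes 12 were tested. At day 7 against day 5, 8 rose and 0 fell, with a median of 2.34, beside 2.74% of all genes called higher and 0.906% lower. The largest rises on the list were those of MYBPC3, which encodes the myosin-binding protein C of the heart (log2 5.62, SE 0.47), the atrial and early myosin heavy chain MYH6 (log2 5.20, SE 0.41) and the M-band gene MYOM1 (log2 4.57, SE 0.37). At day 90 against day 30 only MYOM2 was called among the 12, beside 5.09% of all genes. Its log2 fold change was 2.32 (SE 0.59, adjusted p = 0.010 with edgeR). At day 90 against day 9, 9 rose and MYH6 fell (log2 -2.26, SE 0.44). Of all genes, 11.9% were called higher and 12% lower there. The ventricular genes MYL2 (log2 9.11, SE 0.67) and MYH7 (log2 6.80, SE 1.02) had the largest rises on the list.

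All 11 regulators of cardiac muscle transcription were tested. At day 1 against day 0, 3 rose and 1 fell, beside 3.86% of all genes called higher and 9.66% lower. At day 3 against day 1, 6 rose and 0 fell, where 11.0% of all genes were called higher, among them MYOCD (log2 4.42, SE 0.41), GATA6 (log2 4.08, SE 0.33) and HAND2 (log2 3.46, SE 0.45). At day 5 against day 3 another 6 calls were rises, beside 5.75% of all genes called higher. The largest of the 6 were MEF2C (log2 5.64, SE 0.47), TBX5 (log2 5.44, SE 0.55) and NKX2-5 (log2 3.94, SE 0.53). At day 7 against day 5, 3 regulators rose, with NKX2-5 the largest (log2 3.47, SE 0.36), beside 2.74% of all genes called higher. TEAD1, of the family that binds M-CAT sites, was called at none of these 3 steps and held between 133 and 176 CPM on average from day 1 to day 7.

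Genes whose level followed each member most closely were found by Pearson's r of log2(CPM + 1) over the 44 libraries, among 15479 protein-coding genes. The libraries share groups and lanes, so r describes the time course. TNNT2 lay closest to NKX2-5 (r = 0.987), SMYD1 (0.987), BVES (0.984), TNNI1 (0.984) and ACTC1 (0.983). TNNI1 lay closest to MYL4 (0.989) and MYL7 (0.989), and TNNC1 to MYL3 (0.981), CKM (0.975) and SMPX (0.973). For TNNI3 the 5 nearest were SPAG7 (0.921), ANAPC16 (0.913), COX7A1 (0.901), PGAM2 (0.890) and FXYD1 (0.888), and none of these encodes a filament protein. TNNT1 was nearest to HDAC1 (0.866), TNNT3 to DIRAS3 (0.946) and TNNC2 to PRPH2 (0.817).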

How the data were processed

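Per the submitters' processing notes, reads were handled with cutadapt, STAR 2.5.2b, RSEM 1.2.31 and the hg38 build. The annotation and the use of strand are not given in the sources used here. The authors deposited estimated counts per gene, unscaled, of which 93.8% were whole numbers (within 1e-06), and TPM, scaled for length. They also deposited an RNA integrity score and 1 of 5 lanes for each of the 44 libraries. Identifiers were named by GENCODE release 29 (56769 of 60499 found), which also gives the coordinates. Promoter windows come from RefSeq on GRCh38.p14. No 2 libraries held identical values, and 0 columns were left unmatched.

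Counts were rounded, filtered with filterByExpr (22955 genes) and scaled by TMM. The 13 comparisons are contrasts of 1 edgeR 4.0.16 (R 4.3.3) quasi-likelihood model with 12 group means. Adjusted p values are Benjamini-Hochberg over 22955 genes. SE is the absolute log2 fold change over the square root of F. In alternatives, DESeq2 1.42.0, limma 3.58.1, RLE scaling, other filters, a replicate block, a lane term, 2-group fits and each well left out were used. Shares were tested by exact permutation in Python 3.11.15. Effective lengths are count over TPM, scaled in each library to 155 to 305 genes with 1 transcript of at least 3000 bases and at least 200 counts.

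The named genes are the 8 members, up to 3 genes each way by size of change from 3 lists (thin filament, thick filament, regulators), and the 5 genes nearest in pattern. Members and lists were chosen with earlier results of these data known. TPM1, TEAD1, MYOG and CKM were named after their values were seen. With at least 3 pairs, every pair of same-numbered wells deviated together (r over 0.1) at day 9 against day 7 alone (5 pairs, r from 0.105 to 0.674). Comparisons with 2 pairs were not judged, and 3 of them had r over 0.1 in both pairs (day 14 against day 11, day 20 against day 14 and day 90 against day 9). At day 9 against day 7 the model with the replicate block also called 0 members. On simulated counts for 22955 genes, day 9 against day 0 recovered 17, 48, 50 and 50 of 50 genes changed 2-, 4-, 8- and 16-fold, with 11 unchanged genes called. The changed genes were drawn only from those with a mean over 1 CPM, and the spread was set by mean level alone. The recovery therefore does not cover genes at lower levels, such as TNNI2. A count of 3 was taken as the floor, 0.0919 to 0.410 CPM. There are no molecular identifiers, so floors cover counting error only.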

Additional observations from a re-analysis of the deposited data

Results flagged for a closer look

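In 44 sets of 5 wells, 4 held a well far from the other 4. For independent sets chance gives about 1 in 20, but these sets share wells and genes, and most of the flags are of 1 well. The 4 flags therefore cannot be set against that rate. TNNT1 in day 9 well 2 was 41.0 CPM, against 21.0 to 26.1 in the others. TNNI2 in the same well was 0.202 CPM, from 6 counts, against 0.0379 to 0.0786. The TNNT2 share of troponin T TPM in that well was 91.8%, against 96.5% to 98.0%. This library has 31040870 counts and a RIN of 9.3, and an endoderm and liver marker sum of 7007 CPM, against 548 to 2017 in the other day 9 wells. The TNNC1 share of troponin C TPM in day 9 well 4 was 98.7%, against 99.2% to 99.3%.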

How the results depend on the processing

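For member fold changes that were called, 444 of 467 alternative values were called too, 23 were not, and 0 had the other sign. For those not called, 46 of 1315 alternative values were called, and 87 had the other sign without being called. Counts of members called moved by over 1.5 times as follows. With a lane term, day 1 against day 0 gave 1, day 11 against day 9 gave 1 and day 20 against day 14 gave 1. With DESeq2, day 11 against day 9 gave 2, day 14 against day 11 gave 2, day 20 against day 14 gave 1 and day 90 against day 30 gave 2. With RLE scaling day 11 against day 9 gave 1, and with limma on log2(TPM + 1) day 3 against day 1 gave 3. At day 90 against day 30, the replicate block gave 2 (TNNI3 and TNNC1) and a fit of only those 2 groups gave 0. The replicate block added TNNC2 at day 1 against day 0, TNNI3 at day 3 against day 1 and at day 7 against day 5, and TNNI2 at day 90 against day 9. It changed no other call. Same-numbered wells of these comparisons did not meet the criterion for pairing, though at day 90 against day 9 both pairs had a positive r (0.155 and 0.201). With libraries of RIN of at least 9 only (33 libraries, chosen after seeing the data) the counts were 1 at day 9 against day 7, 2 at day 11 against day 9, 3 at day 14 against day 11 and 1 at day 30 against day 20. This leaves 1 well each at days 14, 20 and 90, assumed to vary like the other groups. Without the 3 libraries of lowest total count (also chosen afterwards) no count moved by over 1.5 times. Leaving out each well in turn gave 1 member at day 1 against day 0 throughout, 4 to 5 at day 3 against day 1, 0 to 1 at day 9 against day 7, 0 to 2 at day 11 against day 9, 0 to 2 at day 14 against day 11, 0 to 1 at day 20 against day 14, 0 to 1 at day 30 against day 20 and 0 to 2 at day 90 against day 30. The share difference of TNNT2 at day 11 against day 7 was 3.68 to 4.82 points with 1 well left out, and that of TNNC1 0.671 to 0.860 points. As log2 ratios these were 1.76 and 1.16, and both passed. The TNNT2 share at day 90 against day 30, -0.22 points, turned to 0.0247 points without day 90 well 2 (range -0.40 to 0.0247) and to 0.352 points with RIN of at least 9. The causes were not tested. Depth limits TNNI2, TNNT3 before day 20 and TNNC2 at days 3, 5, 14, 20, 30 and 90, where most wells hold under 20 counts.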
